A study of Homo sapiens with 19 samples.

Results

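The genes described here are 40 neuronal genes, chosen by name from a given list of genes that the repressor REST and its corepressor CoREST hold silent outside the nervous system, and all 40 were found among 20007 protein-coding genes of GENCODE release 44. The cells were MOLM-13, 1 human acute myeloid leukaemia line, given either Corin or the vehicle DMSO for 24 h. The labels give 0.1 µM for both treatments, and what that dose means for DMSO is unclear. CUT&RUN, in which an antibody guides a nuclease to the chromatin that carries a mark, was done for H3K27ac, H3K4me2 and H3K4me3 with 2 libraries per mark and treatment, which gives 12 peak lists. The series holds 19 libraries. Not used here were the remaining 7: 4 libraries of cells that also received all-trans retinoic acid, 1 made with an LSD1 antibody and 2 IgG controls. The labels do not say whether the 2 libraries of a group came from separate cultures, so the spread between them may be technical.

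REST binds a long DNA element called RE1 and recruits CoREST, which carries the demethylase LSD1 and the deacetylases HDAC1 and HDAC2. LSD1 removes methyl groups from H3K4me2 and H3K4me1, and the deacetylases remove acetyl groups from histone tails, H3K27ac included. Corin joins an LSD1 inhibitor to a deacetylase inhibitor and was made to act on the CoREST complex. The question put to the peak lists was whether the neuronal genes gained these marks in a myeloid line. H3K4me3 marks promoters, H3K4me2 marks promoters and enhancers, and H3K27ac marks those that are active.

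The sequences below are shown because the RE1 element is what ties these genes to REST, and because the marks were then read around it. A 21 base pattern was searched on both strands of hg38: TTCAGCACC on the left, 3 bases that were not scored, and GACAGCGCC on the right, with at most 3 mismatches over the 18 scored bases. The genes were not chosen by this search. A match lay within 10 kb of the start of 20 of the 40 neuronal genes (50%), against 764 of 20007 protein-coding genes (3.82%). With at most 1 mismatch the figures were 14 of 40 (35.0%) and 0.375% of all genes. The genome held 19 matches with no mismatch, and 5 of these lay by neuronal genes of the list. Capitals mark scored bases that match the pattern, and each sequence is written 5′ to 3′ on the strand of the match.
CHGA: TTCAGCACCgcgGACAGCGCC
GRIN1: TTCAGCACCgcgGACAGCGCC
UNC13A: TTCAGCACCgtgGACAGCGCC
CHRNB2: TTCAGCACCacgGACAGCGCC
GRIA2: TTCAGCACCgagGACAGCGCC
VGF: TTCAGCACgctgGACAGCGCC
SYN1: TTCAGCACCgcgGACAGtGCC
BDNF: TTCAGCACCttgGACAGaGCC
TUBB3: gTCAGCACCaagGACAGCGCC
CHGB: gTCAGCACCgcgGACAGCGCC
SYP: TcCAGCACCgtgGACAGaGCC
SNAP25: TTCAGCACCgggGACAGCGgt
The 5 matches with no mismatch lie on hg38 at chr14:92923523-92923543 (plus strand) in an intron of CHGA, at chr9:137139260-137139280 (plus) in a 5′ UTR exon of GRIN1, at chr19:17681753-17681773 (minus) in an intron of UNC13A, at chr1:154567954-154567974 (plus) in a 5′ UTR exon of CHRNB2, and at chr4:157220388-157220408 (minus) upstream of the canonical transcript of GRIA2. The match of VGF at chr7:101165559-101165579 (plus) covers the gene's start, and that of SYN1 at chrX:47620070-47620090 (minus) lies 223 bp before it. Those of BDNF at chr11:27720676-27720696 (minus), TUBB3 at chr16:89926504-89926524 (plus), CHGB at chr20:5911704-5911724 (plus), SYP at chrX:49200122-49200142 (minus) and SNAP25 at chr20:10219672-10219692 (plus) lie in introns, except that of BDNF, which is upstream of the canonical transcript. A match is a description of the letters and does not show that REST is bound there.

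Promoters of RefSeq (GRCh38.p14) were read for VGF and SYN1, because their matches lie in the promoter itself while the marks around them differed. Of 35116 promoters of 300 bases in that table, 37 (0.105%) held a match, and 4 of the 26 neuronal genes present in it did: GAD2, GRIA2, SYN1 and VGF. Each promoter is written 5′ to 3′ on the gene's strand with the whole match in capitals. The first runs over chr7:101165559-101165819 (minus strand) and ends with the match, which is read there on the opposite strand of the gene, so that the capitals are the reverse complement of the letters given for VGF above. The second runs over chrX:47619858-47620107 (minus strand) and holds the 250 bases before the start.
VGF promoter: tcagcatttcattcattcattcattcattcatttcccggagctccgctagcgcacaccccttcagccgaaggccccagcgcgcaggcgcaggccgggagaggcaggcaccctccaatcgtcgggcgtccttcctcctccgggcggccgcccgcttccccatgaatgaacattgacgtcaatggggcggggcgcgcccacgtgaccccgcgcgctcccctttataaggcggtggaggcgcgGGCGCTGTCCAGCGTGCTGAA
SYN1 promoter: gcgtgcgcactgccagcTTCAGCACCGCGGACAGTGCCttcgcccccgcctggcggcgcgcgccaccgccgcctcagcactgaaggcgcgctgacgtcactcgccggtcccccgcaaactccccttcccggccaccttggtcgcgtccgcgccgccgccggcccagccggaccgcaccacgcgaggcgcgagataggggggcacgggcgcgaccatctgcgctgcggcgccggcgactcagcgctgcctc

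The measure used throughout is the number of bp under peaks. It was taken within 10 kb either side of the transcription start site (TSS, the 5′ end of the gene in the annotation), within 1 kb of it, and over the gene body. Read depth is unknown, since only peak lists were used, so a gene without a peak is one where none was called and may still carry some of the mark. The lists themselves differed: those of H3K27ac held 34424 and 30029 peaks with Corin against 17599 and 19995 with DMSO, those of H3K4me2 held 41152 and 40042 against 30896 and 32299, and those of H3K4me3 held 11757 and 11883 against 11104 and 11343. The myeloid identity of the cells was visible in the lists, as all 17 myeloid markers checked, MPO, SPI1 and CEBPA among them, had an H3K27ac peak within 10 kb in at least 1 list, 13 of the 17 had one in both DMSO lists, and 16 of the 17 had more bp in both Corin libraries than in both DMSO libraries. Of 8 neural progenitor and glial markers, 7, SOX2 and PAX6 among them, had no H3K27ac peak in any list, and MBP had one in all 4. No H3K27ac peak was listed by CD3E, CD3D, MS4A1 or GATA1, while CD79A and KLF1 had some. REST, RCOR1 (CoREST itself) and KDM1A (LSD1) carried H3K27ac, H3K4me2 and H3K4me3 peaks in all 12 lists.

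With 2 libraries against 2, an exact two-sided permutation test of a single gene cannot go below p = 0.333. A gene is therefore described as higher with Corin where both Corin values exceed both DMSO values, and as lower in the reverse case, and the count of such neuronal genes is read beside the same share of all protein-coding genes.

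Acetylation of the neuronal genes was rare with and without Corin. An H3K27ac peak lay within 10 kb of the TSS of 7 of the 40 genes (17.5%) in at least 1 list, against 52.6% of all protein-coding genes. The groups separated upward at 2 of the 40 (5.0%), against 28.7% of all genes, and downward at 0 of the 40, against 0.345% of all genes. The 2 genes were STMN3, a stathmin family regulator of microtubules, and CELSR3, an atypical cadherin that guides axons. The share of the neuronal genes was thus below that of all genes. A gene without a peak in any list cannot be higher, so these shares also reflect how many genes carry the mark. Of the genes with a peak in at least 1 list, 2 of 7 neuronal genes were higher, beside 5751 of 10529 among all genes. Without Corin replicate 2 the count of higher neuronal genes was 4, where 41.2% of all genes were higher. With the same number of top-scoring peaks kept in each list it was 0, where 16.8% of all genes were.

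Around STMN3, H3K27ac peaks covered 1064 and 561 bp in the Corin libraries and 0 bp in both DMSO libraries. STMN3 was the only gene of the 40 with a peak of this mark within 1 kb of its TSS in both Corin lists and neither DMSO list, which is 1 of 40 (2.5%) where 3.06% of all genes had one. Those peaks lay at chr20:63657726-63658789 and chr20:63657974-63658534, upstream of STMN3 and at the start of RTEL1, a DNA helicase gene whose TSS lies 128 bp away on the opposite strand. Which of these genes the gain belongs to cannot be told apart from peak positions. In limma, fitted over the 9048 genes with a mean of at least 200 bp, the change at STMN3 was 2.29 on the log2(bp + 200) scale (SE 0.583), with a Benjamini-Hochberg adjusted p of 0.154.

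Around CELSR3 the H3K27ac values were 570 and 546 bp with Corin and 214 and 411 bp with DMSO. The groups did not overlap, yet all 4 lists held a peak, upstream of the TSS in each (chr3:48663006-48663575 in Corin replicate 1). No other protein-coding TSS lies within 10 kb of CELSR3. The limma change was 0.59 (SE 0.539, adjusted p = 0.478).

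The other 5 genes with H3K27ac showed no separation. CHRNB2, a nicotinic receptor subunit, had 1183 and 502 bp with Corin and 851 and 688 bp with DMSO, and these peaks sat at the start of UBE2Q1, 8750 bp away. TUBB3, the neuronal beta-tubulin, had 1286 and 228 bp with Corin and 486 and 0 bp with DMSO. The peak that both Corin lists and DMSO replicate 1 shared lay upstream of the TUBB3 start. The TUBB3 window also holds the TSSs of MC1R, 9273 bp away, and of a protein-coding gene without a symbol, 2227 bp away. GRIN1, the obligatory NMDA receptor subunit, had 0 and 209 bp with Corin and 0 and 484 bp with DMSO. SYP, a synaptic vesicle membrane protein, had 218 bp in Corin replicate 2 only, and CHGB, a granin of dense-core granules, had a peak in replicate 1 of each treatment (252 bp with Corin, 396 bp with DMSO). No H3K27ac peak lay within 10 kb of any of the GABA-synthesis, RNA-binding or signalling genes of the list.

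**Figure D1:**
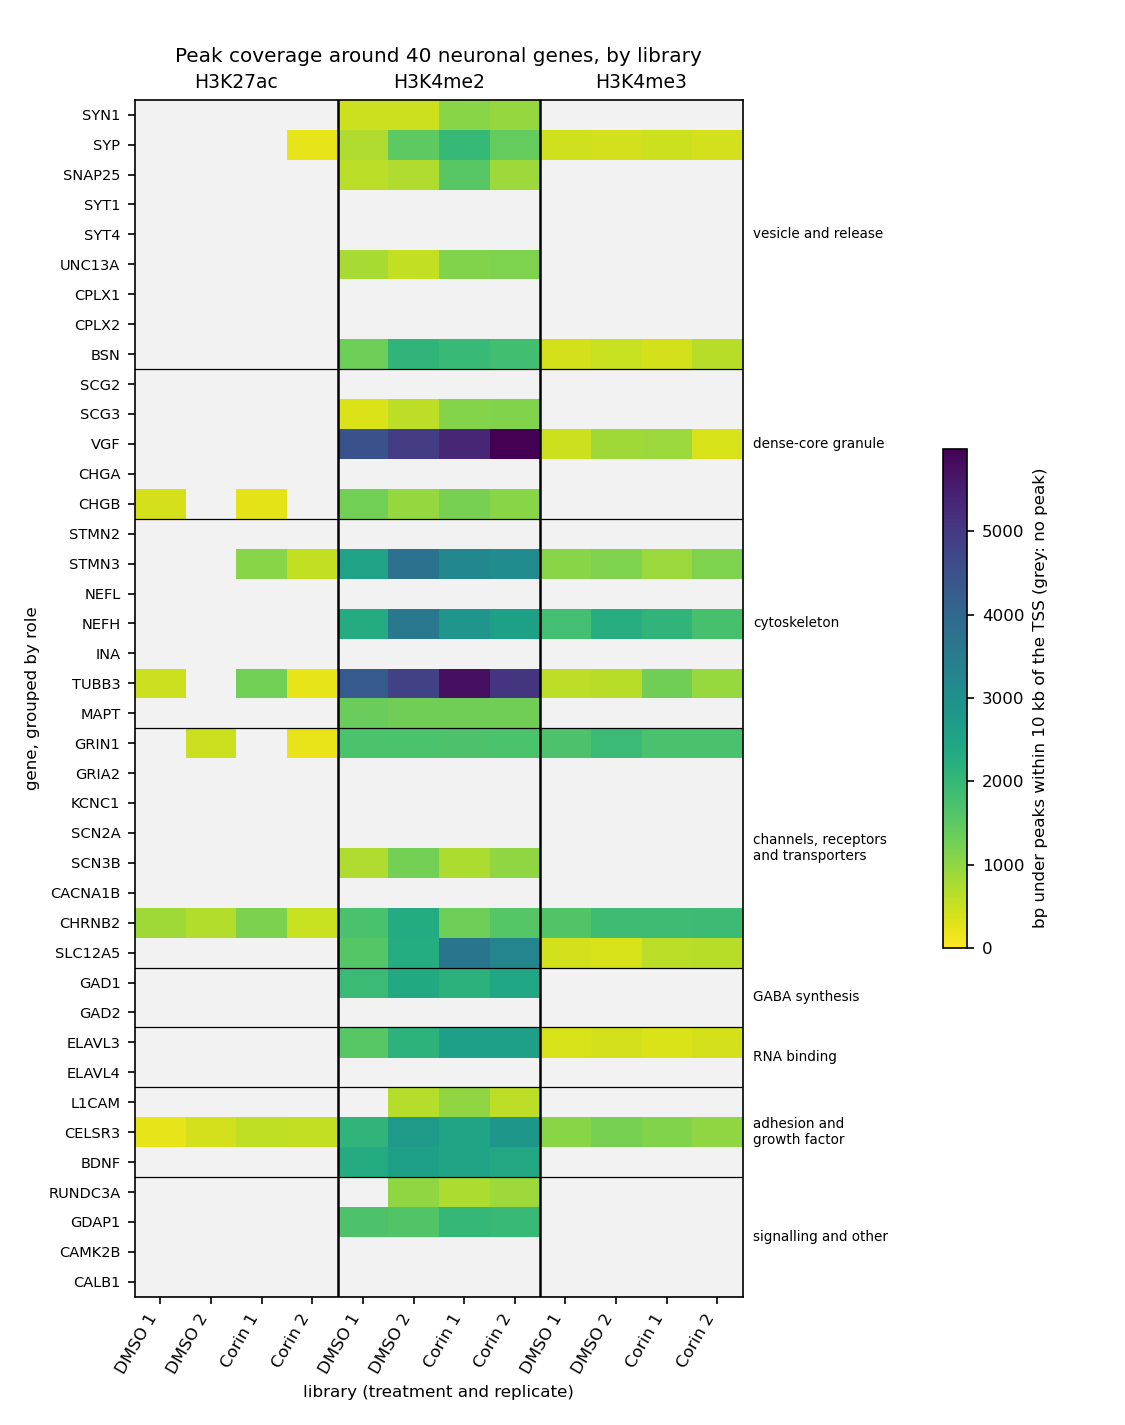
Each row is 1 of the 40 neuronal genes, grouped by role, and each column is 1 library; colour gives the bp under peaks within 10 kb of the TSS and grey marks no peak. H3K27ac appears in 7 rows, H3K4me3 in 11 and H3K4me2 in 23, while 17 rows are grey in all 12 columns.

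H3K4me2 was the mark that these genes carried most. It lay within 10 kb of 23 of the 40 (57.5%), against 70.3% of all genes, and 21 had it in all 4 lists. The groups separated upward at 9 of the 40 (22.5%), against 27.8% of all genes, and downward at 1 (2.5%), against 2.69% of all genes. Both shares are near the background. Of the genes with a peak in at least 1 list, 9 of 23 neuronal genes were higher, beside 5563 of 14074 among all genes. Around the canonical TSS, 8 of the 40 were higher. Lower there were 3 of the 40 (7.5%), CHRNB2, BDNF and GDAP1, against 2.78% of all genes. None of the 40 had H3K4me2 in both Corin lists and neither DMSO list, where 0.91% of all genes did. Without DMSO replicate 2 the count of higher genes was 19 of 40, where 46.5% of all genes were higher, and with each list scaled to its covered length it was 5, where 6.94% of all genes were. L1CAM, a neural adhesion molecule, and RUNDC3A lacked H3K4me2 peaks in DMSO replicate 1 only, with 994, 594, 0 and 670 bp and 733, 873, 0 and 999 bp in Corin replicates 1 and 2 and DMSO replicates 1 and 2.

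Among the vesicle and release genes, 3 of 9 (33.3%) were higher in H3K4me2, near the 27.8% of all genes. SYN1, the synapsin that tethers synaptic vesicles, had 1075 and 948 bp with Corin and 464 and 456 bp with DMSO. In every H3K4me2 list part of these bp came from a peak that crosses the upstream edge of the window. In DMSO replicate 2 all 456 bp did. None of the SYN1 coverage lay within 1 kb of the TSS. The SYN1 promoter printed above carried no peak of any mark within 500 bp of its RE1-like match in any list. UNC13A, a vesicle priming factor, had 1138 and 1170 bp against 790 and 549 bp, and SNAP25, a SNARE protein of vesicle fusion, had 1564 and 873 bp against 618 and 724 bp. Around the canonical TSS of SNAP25, 46435 bp away, the groups overlapped at 2090 and 1858 bp against 2043 and 1817 bp. BSN, a scaffold of the active zone, overlapped with 1938 and 1803 bp against 1327 and 2073 bp, and SYP overlapped with 1973 and 1426 bp against 707 and 1475 bp. The remaining 4, SYT1, SYT4, CPLX1 and CPLX2, which encode synaptotagmins and complexins, had no peak within 10 kb.

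Of the 5 dense-core granule genes, 2 (40%) were higher in H3K4me2, against 27.8% of all genes. VGF, a neuropeptide precursor, carried the mark over 5353 and 5993 bp with Corin and 4482 and 4960 bp with DMSO, the most H3K4me2 of the list together with TUBB3. Around the match at the VGF start, within 500 bp, the values were 752 and 897 bp with Corin and 481 and 796 bp with DMSO, so the groups overlapped there. SCG3, a secretogranin, had 1102 and 1129 bp with Corin and 305 and 587 bp with DMSO. CHGB overlapped at 1220 and 1058 bp against 1272 and 959 bp, and SCG2 and CHGA had no peak of any mark in the window.

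SLC12A5, the chloride exporter KCC2 of mature neurons, had the largest H3K4me2 rise in mean bp around the 5′ end among the genes whose groups separated. Its values were 3667 and 3256 bp with Corin and 1587 and 2282 bp with DMSO. In Corin the peaks comprised 1 block over the annotated 5′ end and more coverage upstream (chr20:46012956-46014524 in Corin replicate 1), where DMSO replicate 1 had no peak and DMSO replicate 2 had 478 bp. Around its canonical TSS, 7525 bp away, the groups still separated but by less, with 2098 and 2065 bp against 1587 and 1804 bp, and the rises at VGF, TUBB3, ELAVL3, SCG3, SYN1 and UNC13A were larger. The 3 RE1-like matches of SLC12A5 had no peak of any mark within 500 bp in any list. The limma change at SLC12A5 was 0.80 (SE 0.195, adjusted p = 0.174), below those at SCG3 (1.06) and SYN1 (0.87).

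Other separations in H3K4me2 were found at TUBB3 (5765 and 5058 bp with Corin, 4304 and 4829 bp with DMSO), at ELAVL3, a neuronal RNA-binding protein (2616 and 2604 bp against 1557 and 2114 bp), and at GDAP1, a mitochondrial protein (2002 and 1965 bp against 1681 and 1630 bp). The TSS of JPH1 lies 927 bp from that of GDAP1, and the TUBB3 window holds the TSSs of MC1R and of the gene without a symbol. Around the canonical TSS of GDAP1, 29790 bp away, the direction turned, with 956 and 696 bp with Corin and 1039 and 1090 bp with DMSO. CHRNB2 was the gene that went the other way, with 1311 and 1584 bp with Corin and 1726 and 2297 bp with DMSO. Most of its H3K4me2 lay by UBE2Q1, and at the CHRNB2 start itself a peak was listed only in Corin replicate 2 (213 bp) and DMSO replicate 2 (549 bp). MAPT, which encodes tau, and BDNF, the neurotrophin, held H3K4me2 in all 4 lists with overlapping groups, at 1302 and 1310 bp against 1380 and 1289 bp and at 2501 and 2374 bp against 2314 and 2589 bp. Around the canonical TSS of BDNF, 21603 bp away, the groups separated downward, with 2818 and 2798 bp with Corin and 2839 and 2944 bp with DMSO.

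**Figure D2:**
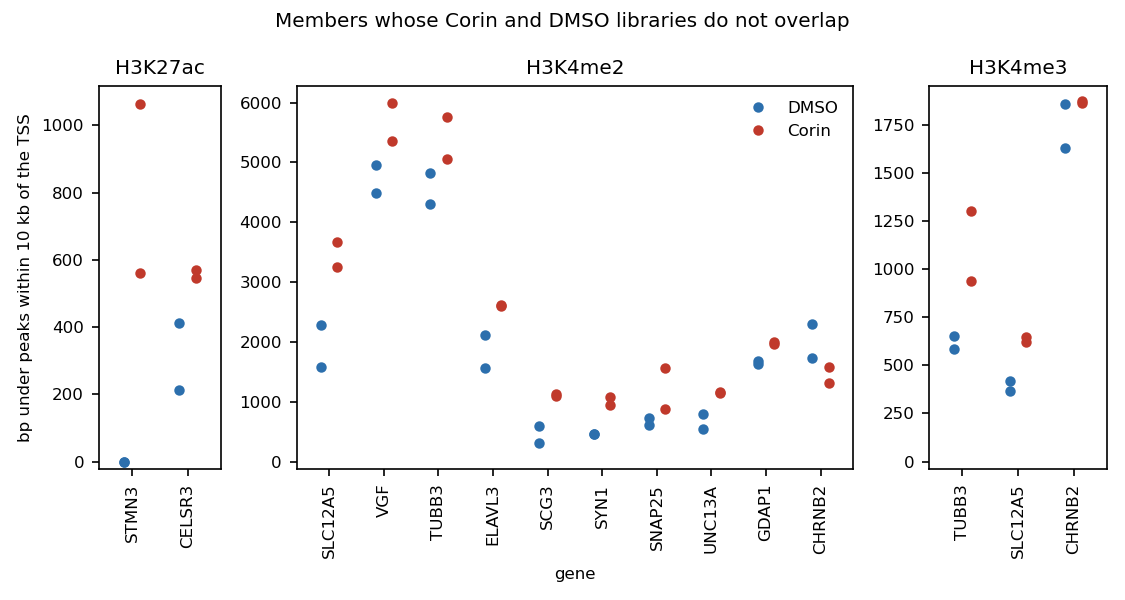
The y axis gives bp under peaks within 10 kb of the TSS for the genes whose 2 Corin points (red) and 2 DMSO points (blue) do not overlap, with 1 panel per mark. H3K27ac has 2 such genes, H3K4me2 has 10, of which CHRNB2 is lower with Corin, and H3K4me3 has 3.

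H3K4me3 lay within 10 kb of 11 of the 40 genes (27.5%), against 55.9% of all genes, and all 11 had it in every list. Values were higher with Corin at 3 of the 40 (7.5%), against 14.4% of all genes, and lower at 0 of the 40, against 4.63% of all genes. Of the genes with a peak in at least 1 list, 3 of 11 neuronal genes were higher, beside 2878 of 11189 among all genes. The 3 were TUBB3 (1299 and 936 bp with Corin, 587 and 652 bp with DMSO), SLC12A5 (621 and 647 bp against 417 and 364 bp) and CHRNB2 (1864 and 1875 bp against 1628 and 1858 bp). At CHRNB2 the nearest values of the groups were 1864 and 1858 bp, and the mark lay by UBE2Q1. Leaving out Corin replicate 1 or Corin replicate 2 each raised the count from 3 to 5, where 22.8% and 27.0% of all genes were higher. At TUBB3 the peak reached into the first 1 kb from the TSS in both Corin lists (429 and 66 bp) and in neither DMSO list, as at 0.36% of all genes, while DMSO peaks began further inside the gene. The limma change at TUBB3 was 0.67 (SE 0.192, adjusted p = 0.589).

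By mean H3K4me3, the 6 highest genes were NEFH, CHRNB2, GRIN1, CELSR3, STMN3 and TUBB3. NEFH, the heavy neurofilament chain, had 2075 and 1737 bp with Corin and 1792 and 2266 bp with DMSO, and its peaks lay around its own start. GRIN1 had 1718 and 1716 bp against 1682 and 1919 bp, all of it far upstream of its TSS (chr9:137128131-137130063 in Corin replicate 1). CELSR3 had 1137 and 986 bp against 1075 and 1228 bp, and STMN3 had 897 and 1167 bp against 1064 and 1149 bp. In NEFH, GRIN1, CELSR3 and STMN3 the groups overlapped.

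Within 1 kb of the TSS, H3K27ac was found at 2 of the 40 genes (5.0%), STMN3 and CELSR3, and both were higher with Corin, against 19.4% of all genes. H3K4me2 was in all 4 lists at 15 of the 40, against 11217 of the 20007 genes, and it was higher at 6 (15.0%), namely SNAP25, TUBB3, SLC12A5, ELAVL3, CELSR3 and GDAP1, against 11.5% of all genes. It was lower at 1 (2.5%), SCN3B, a sodium channel subunit, with 683 and 663 bp against 705 and 895 bp, where 6.45% of all genes were lower. H3K4me3 was higher at 2 (5.0%), TUBB3 and SLC12A5, against 9.18% of all genes. Several of these calls depend on which TSS is taken. Within 1 kb of the canonical TSS, H3K4me2 at GDAP1 was lower, SLC12A5 had no H3K4me2 peak in any list, and TUBB3 overlapped at 1326 and 1561 bp against 1219 and 1413 bp, while SNAP25, ELAVL3 and CELSR3 were higher there too. SCN3B overlapped there, at 746 and 986 bp against 705 and 1244 bp. ELAVL4 was higher only there, at 879 and 731 bp against 683 and 645 bp. STMN3 had no H3K27ac and SLC12A5 no H3K4me3 within 1 kb of the canonical TSS, and H3K4me3 at TUBB3 was 921 and 921 bp with Corin and 587 and 652 bp with DMSO.

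Over the gene body, H3K27ac was higher at 3 of the 40 (7.5%), against 28.8% of all genes. These were UNC13A (224 and 379 bp with Corin, 0 bp in both DMSO libraries), SYP (191 and 218 bp, 0 bp in both) and CAMK2B, a neuronal calcium-dependent kinase (687 and 970 bp, 579 and 335 bp). The Corin peaks of UNC13A began 65501 and 81820 bp inside the gene, and those of SYP 11247 and 8521 bp inside, so neither gene had a new peak at the same place in both lists. Those of CAMK2B lay 76016 bp or more inside the gene in all 4 lists. H3K4me2 over the body was higher at 6 (15.0%), against 28.5% of all genes, and lower at 1 (GDAP1, 2.5%), against 3.41%. H3K4me3 was higher at 3 (7.5%), against 13.1% of all genes.

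A 10 kb window can take in another gene's promoter. For the 33 neuronal genes with no other protein-coding TSS in the window, the groups separated upward at 1 for H3K27ac (3.03%, CELSR3), 7 for H3K4me2 (21.2%) and 1 for H3K4me3 (3.03%). All genes without such a neighbour gave 22.6%, 25.8% and 11.0%.

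Summed over the 40 windows, H3K27ac covered 4355 and 2264 bp with Corin and 1947 and 1583 bp with DMSO, a log2 ratio of 0.91 ± 0.70 (SD of the difference, n = 2 libraries per group), while the covered length of the whole lists rose by 0.97. The ratio was 0.50 without STMN3, an alternative added after its value was seen, 0.36 without Corin replicate 1, and 0.25 over the 33 genes without a neighbour. It was 1.94 within 5 kb of the TSS, 2.88 within 1 kb, where STMN3 and CELSR3 alone had peaks, 2.35 with a score of at least 100, 1.55 over the gene body and 1.30 without Corin replicate 2. H3K4me2 covered 49367 and 47598 bp against 35731 and 45891 bp, a log2 ratio of 0.25 ± 0.26, against 0.36 for the lists. Without DMSO replicate 1 that ratio was 0.08 and without DMSO replicate 2 it was 0.44. H3K4me3 covered 11701 and 10863 bp against 9888 and 11584 bp, a log2 ratio of 0.07 ± 0.18, against 0.08 for the lists. For H3K4me2 and H3K4me3 the difference was smaller than the SD between libraries. For H3K27ac it was larger, but with each list divided by its covered length it was -0.11, and with the same number of top peaks per list it was -0.62.

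**Figure D3:**
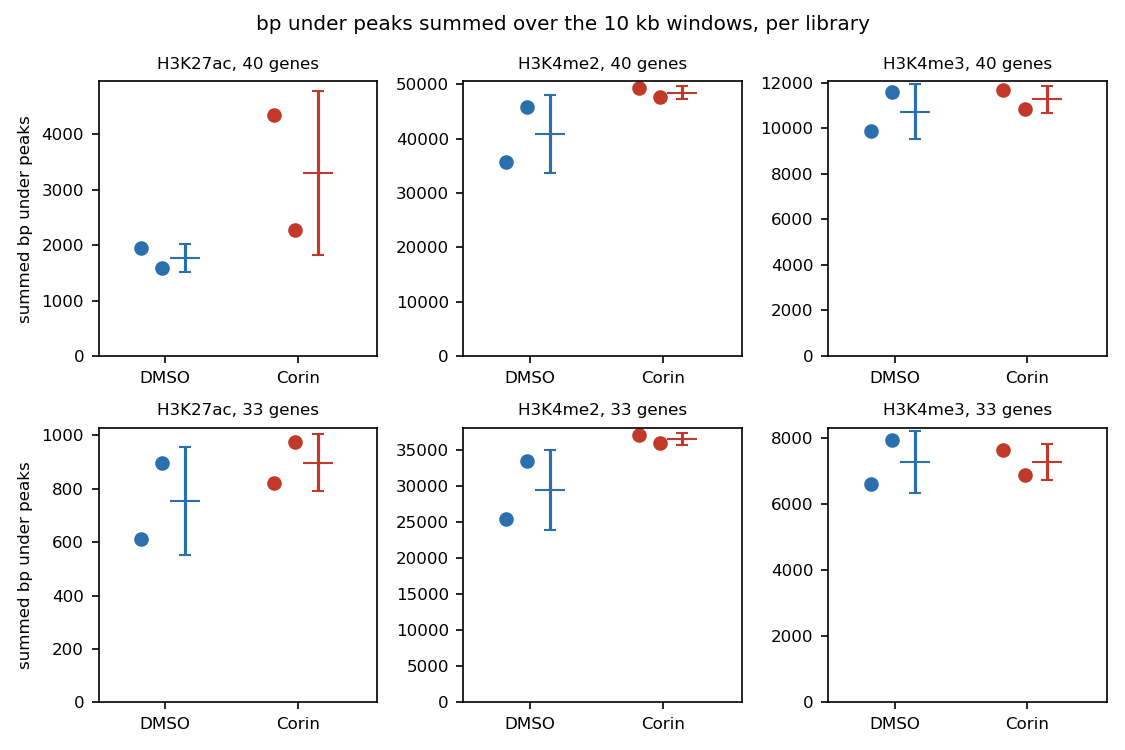
Points are libraries, and the bars beside them give the mean ± SD (n = 2) of the bp under peaks summed over the 10 kb windows, for all 40 genes (upper row) and the 33 without another TSS in the window (lower row). For H3K27ac the rise over 40 genes is mostly that of Corin replicate 1 at 4355 bp, and for H3K4me2 the low point is DMSO replicate 1 at 35731 bp.

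The limma fits over all genes, made without a replicate block, called 0 of 9048 genes for H3K27ac (0.0%), 0 of 13546 for H3K4me2 (0.0%) and 0 of 10731 for H3K4me3 (0.0%) at an adjusted p under 0.05. At an unadjusted p under 0.05 they gave 2187, 1922 and 734 genes, which is 24.2%, 14.2% and 6.84% of the genes tested. Of the neuronal genes, 4, 23 and 11 passed the filter on low values, and 1 (STMN3), 4 (SCG3, ELAVL3, SLC12A5 and SYN1) and 1 (TUBB3) had an unadjusted p under 0.05. Leaving out Corin replicate 1 or Corin replicate 2 brought the H3K27ac change at STMN3 past the threshold, with adjusted p of 0.0094 and 0.0132 from limma. The same fits called 499 and 527 of the 9048 genes higher. In those fits the lone Corin library is assumed to vary like the DMSO libraries.

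The combinations of marks were counted in each treatment. In DMSO, 17 of the 40 windows (42.5%) had no peak of any mark, against 31.1% of all genes. H3K4me2 without H3K4me3 or H3K27ac was found in both DMSO libraries at 9 (22.5%), against 9.17% of all genes, and H3K4me2 with H3K4me3 but no H3K27ac at 7 (17.5%), against 10.8%. All 3 marks were present at 2 (5.0%, CHRNB2 and CELSR3), against 31.0% of all genes. With Corin these numbers were 17, 11, 5 and 4, against 29.5%, 9.69%, 5.64% and 41.5% of all genes. L1CAM and RUNDC3A joined the first H3K4me2 group, and STMN3 and TUBB3 joined the genes with all 3 marks. TUBB3 already had H3K27ac over 486 bp in DMSO replicate 1, so its change rests on DMSO replicate 2, where none was listed.

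The windows that held H3K4me2 in both DMSO libraries but no H3K27ac numbered 16 of the 40, a class set up after the values were seen. With Corin, 1 of the 16 (6.25%) had H3K27ac in both libraries, STMN3, and 1 had it in 1 library, SYP. Over all genes, 656 of 4306 such windows (15.2%) had it in both and 784 (18.2%) in 1. Where H3K4me3 was also absent, the counts were 0 of 9 neuronal genes and 103 of 1835 genes (5.61%).

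No peak of any mark in any of the 12 lists lay within 10 kb of 17 of the 40 genes (42.5%), against 28.9% of all genes and 24 of 40 (60.0%) in a list of other neuronal genes. The 17 were SYT1, SYT4, CPLX1, CPLX2, SCG2, CHGA, STMN2, NEFL, INA, GRIA2, KCNC1, SCN2A, CACNA1B, GAD2, ELAVL4, CAMK2B and CALB1. For 8 of the 40 the canonical transcript starts more than 10 kb from the 5′ end of the gene, ELAVL4 and CPLX2 among them. Around the canonical TSS, 15 of the 17 still had no peak, and 13 of those had none over the gene body either. ELAVL4, a neuronal RNA-binding protein, had H3K4me2 around its canonical TSS in all 4 lists, at 1874 and 1693 bp with Corin and 1671 and 1184 bp with DMSO, so the groups separated upward. CPLX2 had 928 and 0 bp with Corin and 623 and 972 bp with DMSO around its own, so the groups overlapped. INA, a neurofilament protein, had none although an annotated start of NT5C2 lies 467 bp away.

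**Figure D4:**
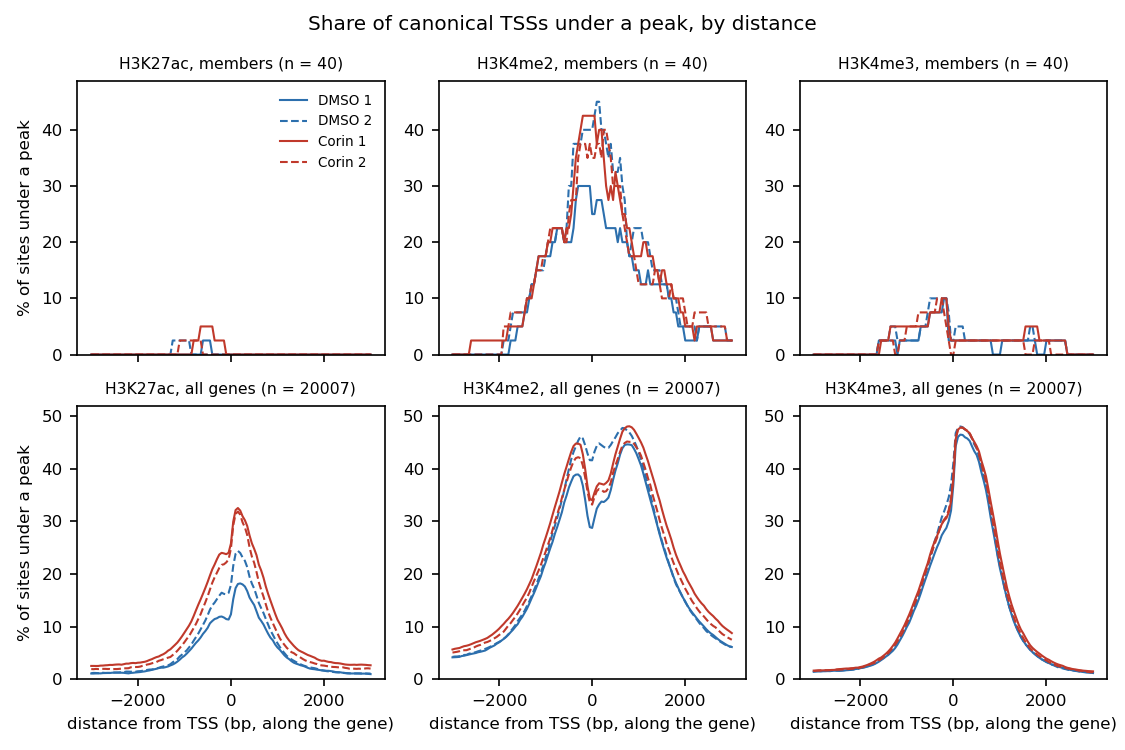
The y axis gives the percent of canonical TSSs that lie under a peak at each distance (x axis, bp along the gene), for the 40 neuronal genes (upper row) and all 20007 genes (lower row), with 1 line per library. H3K27ac reaches at most 5.0% of the neuronal TSSs against 18.2% to 32.6% of all, while H3K4me2 reaches 30.0% to 45.0% against 44.7% to 48.1%.

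Peaks at the neuronal genes differed in rank by mark. H3K4me2 peaks in the windows numbered 37 to 44 per list, with a median width of 962 to 1184 bp against 782 to 862 bp for the lists, and their median score, which is the authors' own value per peak, stood at the 66.1 to 76.2 percentile of its list. H3K27ac peaks numbered 4 to 7 per list at median percentiles of 27.8 to 43.4, and H3K4me3 peaks 11 to 13 per list at 28.0 to 33.5. The median H3K4me2 peak there was thus wider and higher scoring than that of its list, and the median peak of the other marks was lower scoring.

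CpG content was read at the same promoters. The ratio of observed to expected CpG within 500 bp of the canonical TSS had a median of 0.731 over the 40, against 0.725 over all genes. It was 0.752 at the 16 genes with H3K4me2 there in all 4 lists and 0.803 at the 19 with none, where over all genes the medians were 0.792 and 0.332. These are descriptions, without a test of the difference.

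The marks were then read at the RE1-like matches printed above and the rest. There were 36 matches with at most 3 mismatches in the windows and bodies of the 40 genes, counting windows of the annotated and of the canonical TSS, and several genes hold more than 1. No H3K27ac peak lay within 500 bp of any of the 36 in any of the 4 lists. Among all 3033 matches in the genome, 103 had one in at least 1 list and 15 (0.495%) had one in both Corin lists and neither DMSO list. H3K4me2 lay within 500 bp of 13 of the 36 in at least 1 list and of 10 in all 4. It was higher with Corin at 3 (8.33%), against 1.81% of all matches, and lower at 2 (5.56%), against 0.462%. These shares are taken over all matches, and the mark was present in at least 1 list at 13 of the 36 but at 215 of the 3033. None of the 36 had it in both Corin lists and neither DMSO list, where 0.33% of all matches did. H3K4me3 lay within 500 bp of 1 match, at ELAVL3, in all 4 lists, with 185 and 185 bp with Corin and 206 and 223 bp with DMSO. That is 1 lower match of 36 (2.78%), against 0.297% of all matches.

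The 5 matches with no mismatch were mostly bare. Those of CHGA, GRIN1, UNC13A and GRIA2 had no peak of any mark within 500 bp in any of the 12 lists, and that of CHRNB2 had H3K4me2 over 213 bp in Corin replicate 2 and 549 bp in DMSO replicate 2 only. At TUBB3 H3K4me2 covered 752 and 723 bp with Corin and 789 and 787 bp with DMSO around the match printed above, 1 of the 2 matches that were lower. The other was a match with 3 mismatches in the coding exon of VGF, with 689 and 742 bp against 759 and 919 bp. The 3 matches that were higher belong to SNAP25 (460 and 451 bp against 395 and 436 bp), to a second place upstream of VGF (424 and 424 bp against 176 and 130 bp) and to one upstream of TUBB3 (1021 and 362 bp against 199 and 353 bp). TUBB3 and VGF thus each held 1 match that was higher and 1 that was lower.

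**Figure D5:**
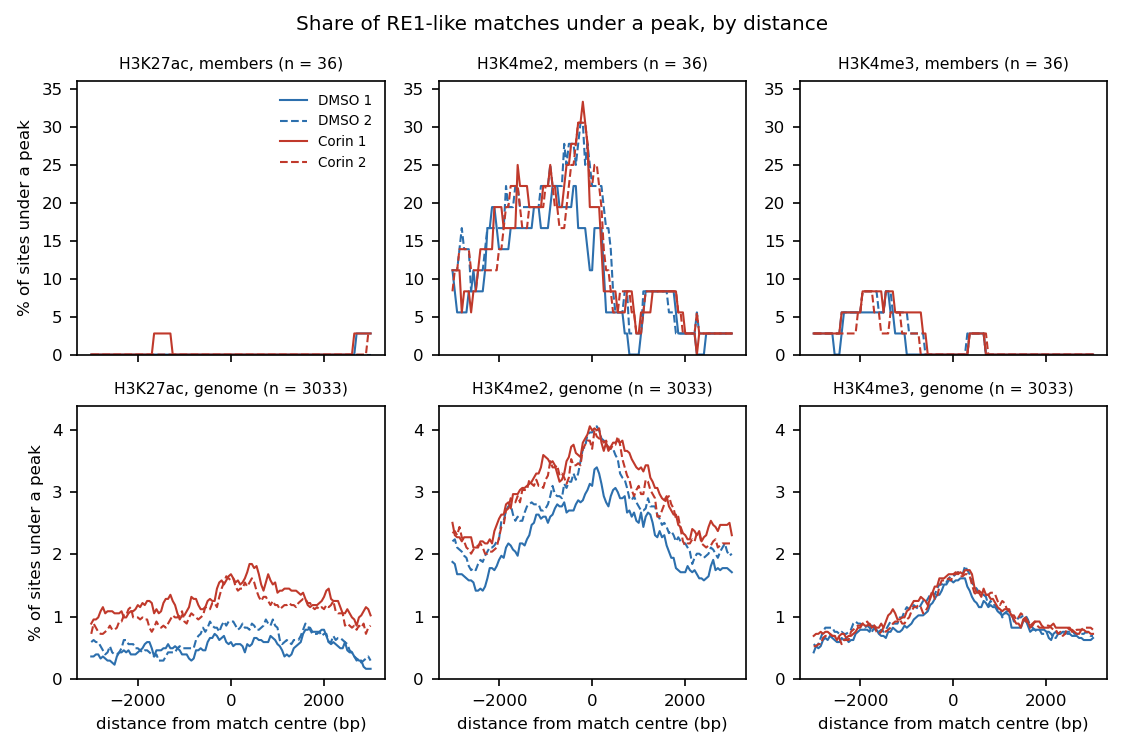
The y axis gives the percent of RE1-like matches under a peak by distance from the centre of the match (x axis, bp), for the 36 matches of the neuronal genes (upper row) and 3033 in the genome (lower row, on its own scale), with 1 line per library. H3K4me2 reaches 22.2% to 33.3% near the matches of the neuronal genes, and H3K27ac does not exceed 2.78% there at any distance.

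The Corin response was also counted by whether a gene had a match. Of the 20 neuronal genes with a match in the window, 0, 6 and 3 were higher with Corin in H3K27ac, H3K4me2 and H3K4me3, and of the 20 without, 2, 3 and 0 were. Over all genes with a match the shares were 23.2%, 23.8% and 14.3%, and over all genes without they were 29.0%, 28.0% and 14.4%.

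The other lists give the same measure for comparison. Within 10 kb of the TSS, 28.7%, 27.8% and 14.4% of all genes were higher with Corin in H3K27ac, H3K4me2 and H3K4me3. Of 40 other neuronal genes, 4, 6 and 2 were higher, and 5 of these 40 genes (12.5%) had an RE1-like match there. Of 22 genes that encode REST, CoREST and associated factors, 10, 5 and 5 were higher, to be read beside the same shares of all genes. CTBP1 was lower in H3K4me2, and KDM1A and SIN3B were lower in H3K4me3. REST itself had H3K27ac over 1472 and 1410 bp with Corin and 385 and 600 bp with DMSO, and RCOR1 had 2929 and 2580 bp against 1501 and 1866 bp. In H3K27ac KDM1A overlapped, with 1334 and 770 bp against 1074 and 297 bp. None of the 22 had an RE1-like match within 10 kb of the 5′ end of the gene, and 1 (4.55%) had one within 10 kb of its canonical TSS.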

How the data were processed

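CUT&RUN libraries of MOLM-13 cells were grouped by mark and treatment per the labels. Trim Galore, Bowtie2, Picard and MACS2, and the build hg38, are named in the submitters' processing notes; versions, control, threshold and annotation are not given in the sources used here. The authors deposited 1 list per library, which holds peak positions with a score. That score comes as an integer, 50 or more in every list, without a stated definition; here it served for ranking and filtering inside single lists. Read depth is unknown, so no interval or floor that needs it was computed.

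Peaks of a list were merged and the bp they cover were summed per gene with Python 3.11.15 and numpy 2.4.6 over 20007 protein-coding genes with a unique name. The genes, lists and tests were chosen with earlier results of these data known. Genes are named with every library's value if they are among the 6 largest rises or 3 largest falls per mark without overlap of the groups, have a peak within 1 kb of the TSS in both libraries of 1 treatment only, are called by limma, or are among the 6 highest in H3K4me3; others named were chosen after their values were seen. limma 3.58.1 was fitted per mark on log2(bp + 200) over genes with a mean of at least 200 bp, with Benjamini-Hochberg adjustment, and tested on simulated data. RE1-like matches were searched in hg38. The alternatives tried were the peak number, score, TSS, window, scaling, pseudocount, filter, neighbours, gene body, mismatches, replicate block and leaving out each library.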

Additional observations from a re-analysis of the deposited data

How the results depend on the processing

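Of the alternatives, 107 values stayed within their limits of the reported ones, 16 moved and 3 reversed. For H3K27ac, the 2 higher genes became 0 with matched peak numbers, 1 with scaling to covered length, 1 without genes that have a neighbouring TSS, and 2 to 4 when 1 library was left out. The summed log2 ratio of 0.91 was -0.62 with matched peak numbers and -0.11 with scaling, both reversed, and 2.35 with a score of at least 100, 1.94 in a 5 kb window and 2.88 in a 1 kb window; it was 0.36 to 1.30 without 1 library. Calls by limma were 0 or 1 when 1 library was left out (STMN3). For H3K4me2, the 9 higher genes became 5 with scaling and 11 to 19 without 1 library, and the summed ratio of 0.25 was -0.10 with scaling, reversed, and 0.08 to 0.44 without 1 library. For H3K4me3, the 3 higher genes became 1 without genes that have a neighbouring TSS and 4 or 5 without 1 library, and the summed ratio of 0.07 was 0.26 over the gene body and -0.04 to 0.19 without 1 library. The cause was not tested. The RE1 count of 20 genes was 16 with at most 2 and 25 with at most 4 mismatches, and the 15 promoters with H3K4me2 in all 4 lists were 14 at a minimum of 200 bp. With the replicate block, limma called 1 neuronal gene for H3K4me2 (SLC12A5, adjusted p = 0.0243) where it had called 0. Over all 13546 genes it called 657 higher and 1 lower. For H3K27ac the block gave 551 of 9048 genes higher and 0 neuronal genes. For H3K4me3 it gave 0 genes. Deviations of same-numbered libraries correlated at 0.286, 0.309 and 0.228 over genes, but with 2 pairs the libraries are taken to share only a number. Without STMN3, an alternative chosen after seeing the data, the summed ratios were 0.50, 0.27 and 0.09. Peak lists without read depth limit what can be called absent.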
